A study of Mus musculus with 4 samples.

Results

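Hedgehog signalling is a cell-to-cell pathway that patterns many organs. A secreted ligand such as Shh binds the receptor Ptch1, which otherwise holds the membrane protein Smo inactive, and active Smo lets the Gli transcription factors switch on their target genes. Gli1, Ptch1 and Hhip are themselves classic targets, so their transcripts are often read as a gauge of pathway activity. In the developing lung the ligand is made by the epithelium and received by the mesenchyme around the airways, from which airway smooth muscle forms.

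The 9 genes described here are the ligand Shh, the transcription factors Gli1, Gli2 and Gli3, the receptor Ptch1, the membrane-bound ligand-binding protein Hhip, the signal transducer Smo, and the co-receptors Gas1 and Boc. They were taken by gene symbol, and each was found as 1 probe set among 23185 named probe sets. RNA came from airway smooth muscle cells sorted by flow cytometry from lungs of adult Acta2-hrGFP;Cspg4-DsRED mice, the cells being green (hrGFP+) and not red (DsRED-). The green reporter is driven by the promoter of the smooth muscle actin gene and the red one by that of a pericyte and vascular smooth muscle gene. All 4 groups carried both reporters, and each group was 1 array made from the pooled RNA of 3 mice. VAD mice ate a vitamin A-deficient diet (under 0.1 IU per gram), for 3 days by one statement in the labels and 5 days by another, and VAS mice ate the normal sufficient diet (15 IU per gram). BMS mice received, over 3 days, a powdered sufficient diet that held BMS (5 mcg per gram), a compound that blocks every retinoic acid receptor, and CTR mice the same powdered diet with the corn oil vehicle for 3 days.

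Levels are the log2 values that the authors deposited after RMA (background correction and normalization between arrays), so 1 unit is a 2-fold difference. With 1 array per group a difference compares 2 pools, there is no replicate spread, and no test of a single comparison was possible. Both VAS and CTR mice were vitamin A-sufficient but came from different experiments, and their difference is given beside the others. A gene was kept where its highest value was at least 6.05 (the median over all named probe sets and arrays), which left 8 of the 9 Hedgehog genes and 12395 genes in all. Shh was the gene below it. Levels of different genes are not ranked against each other, since each probe set responds differently. The smooth muscle and myofibroblast marker list (11 genes, Hhip left out) summed to 39518, 36884, 33179 and 35582 on the linear scale in VAD, VAS, BMS and CTR. Adventitial fibroblast markers (10 genes, Gli1 left out) summed to 19258, 21006, 21540 and 15789, and alveolar epithelial markers (10 genes) to 1331, 2870, 1225 and 790. Transcripts typical of other lung cells were thus measured in the sorted pools, and fewer cells of a type cannot be told apart from less RNA per cell.

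No Hedgehog gene past the filter was 1.5-fold apart within an experiment or between the controls. In VAD against VAS 0 of the 8 were higher by 1.5-fold or more and 0 lower by as much, where 1.45% of all 12395 genes were higher and 2.11% lower. In BMS against CTR the counts were again 0 and 0, against 3.11% and 1.89% of all genes. In CTR against VAS they were 0 and 0, against 2.66% and 5.87%. With such shares in the background, 8 genes would seldom hold any, so these zeros are not a result about Hedgehog genes as a set. The differences of the 8 genes ran from -0.35 to 0.29 in VAD minus VAS, from -0.35 to 0.48 in BMS minus CTR and from -0.30 to 0.38 in CTR minus VAS. The 0.48 was that of Gas1, which passed the filter only through its BMS value of 6.26, and the next highest was Smo at 0.41. The median sizes of the 8 genes, without sign, were 0.17, 0.28 and 0.23, where those of all genes were 0.14, 0.15 and 0.21. In BMS minus CTR the range and medians of the 8 thus include a gene kept through its high BMS value. The signed medians of the 8 genes were -0.080, -0.039 and 0.18, beside 0.0077, 0.0081 and 0.0025 for all genes. Over the 4 arrays a Hedgehog gene ranged over 0.32 log2 units in the median, and all genes over 0.35.

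**Figure D1:**
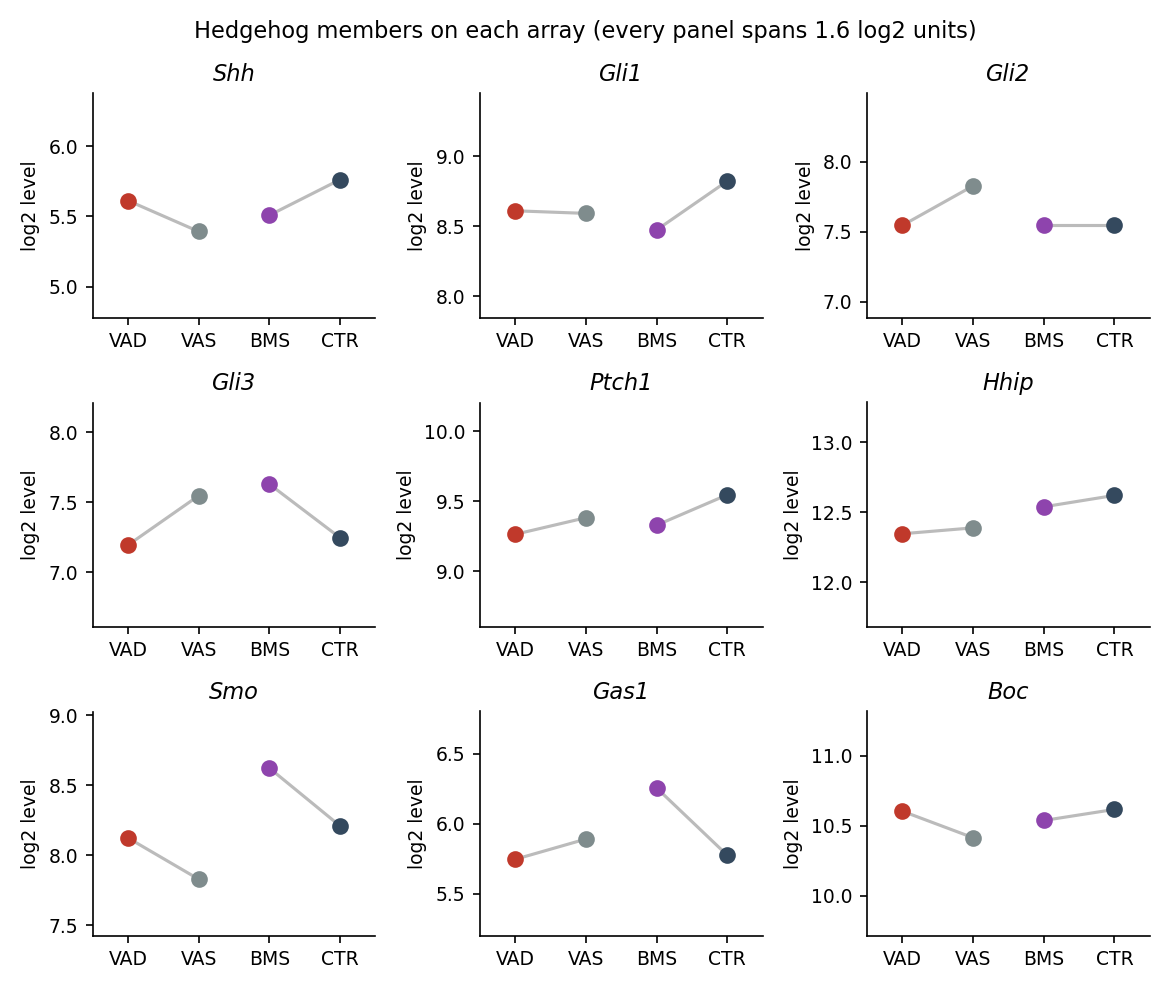
Log2 level (vertical axis) of each of the 9 Hedgehog genes on the VAD, VAS, BMS and CTR arrays, 1 point per array, with a line joining the 2 arrays of an experiment. Every panel spans the same height, so slopes can be compared: Smo had the widest range, 0.79, and Boc the narrowest, 0.20.

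The ligand gene Shh read 5.61 on the VAD array, 5.39 on VAS, 5.51 on BMS and 5.76 on CTR. All 4 values lay under the filter. VAD stood 0.22 above VAS and BMS differed from CTR by -0.25, while CTR stood 0.37 above VAS, more than either treated pool differed from its control. Markers of airway epithelium, 1 part of the epithelium that makes Shh in the developing lung, were also low. Of these 10 markers 4 passed the filter, and the 10 summed to 512, 519, 489 and 476 in VAD, VAS, BMS and CTR. Alveolar epithelial markers were not all low. Of that list 6 of 10 passed the filter, and Sftpc read 9.28, 10.86, 9.15 and 7.32 in VAD, VAS, BMS and CTR. Whether any Shh signal lay above the arrays' background is unknown, since no detection values were used.

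The 3 target genes that serve as a gauge of the pathway showed no 1.5-fold difference. Gli1, an activator that is itself induced by the pathway, read 8.61 in VAD and 8.59 in VAS, and 8.47 in BMS and 8.82 in CTR. The VAD and VAS pools differed by 0.019, and BMS stood below CTR by the largest step of the 3 genes, -0.35 or 1.27-fold, a step that 7.30% of all genes matched or passed in the same direction. Ptch1, the receptor, read 9.26 in VAD and 9.38 in VAS, and 9.33 in BMS and 9.55 in CTR, differences of -0.12 and -0.22. Hhip, which binds ligand at the cell surface and limits its spread, read 12.35 in VAD and 12.39 in VAS, and 12.54 in BMS and 12.62 in CTR, differences of -0.042 and -0.081. All 3 had their highest value on the CTR array, with CTR minus VAS at 0.23 for Gli1, 0.16 for Ptch1 and 0.23 for Hhip. Set against VAS in place of CTR, BMS differed by -0.12 for Gli1, -0.054 for Ptch1 and 0.15 for Hhip, so Hhip turned and the other two differed by less than against CTR. Hhip read near the top of the scale, where array maxima were 12.80 to 12.92. A further increase would be hard to see there, and differences in either direction may be understated.

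The pair of Gli genes that carry the signal before Gli1 differed between the experiments. Gli2, the main activator among the Gli proteins, read 7.55 in VAD and 7.83 in VAS, and 7.55 in both BMS and CTR, which had the same deposited value, as did 74 probe sets in all on those 2 arrays. Its differences were -0.28 for VAD minus VAS and 0 for BMS minus CTR, and the VAS array was the highest of the 4. Gli3, which is cut into a repressor when no ligand is present, read 7.19 in VAD and 7.55 in VAS, a difference of -0.35. In the other experiment it read 7.63 in BMS and 7.25 in CTR, a difference of 0.38. The difference of the differences was 0.73, the widest among the 9 genes, and cannot be tested with 1 array per group. VAD minus CTR was -0.053 for Gli3 and BMS minus VAS 0.083, so neither treated pool stood outside the 2 controls by more than these amounts.

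Smo, the transducer that Ptch1 restrains, had the widest range of the 8 genes past the filter. It read 8.12 in VAD and 7.83 in VAS, and 8.62 in BMS and 8.21 in CTR. BMS was the highest array and VAS the lowest, and each treated pool was above its own control, by 0.29 or 1.23-fold in VAD and by 0.41 or 1.33-fold in BMS. Of all 12395 genes, 170 or 1.37% had both differences at or above 0.29, a rule chosen after the values of Smo were seen. The controls themselves lay 0.38 apart, CTR above VAS, and VAD minus CTR was -0.086. BMS against VAS gave 0.79 or 1.73-fold, the one comparison of a treated pool with a single control in which a Hedgehog gene passed 1.5-fold. Smo was the only one of the 8 higher in both treated pools than in their own controls, and Ptch1 and Hhip were lower in both. The signs of 2 small differences turned with the scaling: VAD minus VAS was 0.015 for Hhip after quantile normalization, and for Gli1 -0.0042 after quantile normalization and -0.0039 after cyclic loess. The Gli2 difference of 0 in BMS minus CTR was then -0.034 and -0.013.

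The letters just before the start of Smo and Ptch1 are shown because Smo had the widest range and Ptch1 is a classic target, both among the 6 members with an entry in the RefSeq promoter table (Gli2, Gli3, Ptch1, Hhip, Smo and Gas1). Each line gives the 250 bases before the annotated start in build GRCm38.p6, 5′ to 3′ on the gene's strand, with capitals for the GC box GGGCGG or its reverse complement CCGCCC. Smo lies at chr6:29735247-29735496 on the plus strand and Ptch1 at chr13:63565736-63565985 on the minus strand.
Smo: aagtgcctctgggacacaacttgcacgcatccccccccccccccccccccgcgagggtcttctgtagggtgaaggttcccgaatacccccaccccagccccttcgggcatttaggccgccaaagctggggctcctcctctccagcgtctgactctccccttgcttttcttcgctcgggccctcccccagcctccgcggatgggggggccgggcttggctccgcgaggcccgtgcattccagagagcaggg
Ptch1: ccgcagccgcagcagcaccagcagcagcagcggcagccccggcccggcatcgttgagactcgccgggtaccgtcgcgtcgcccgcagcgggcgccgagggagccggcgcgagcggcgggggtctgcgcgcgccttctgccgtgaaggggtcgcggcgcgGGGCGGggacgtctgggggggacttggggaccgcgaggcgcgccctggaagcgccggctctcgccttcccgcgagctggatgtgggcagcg

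The Smo window held 0 GC boxes and the Ptch1 window 1, at 68.4% and 78.4% G or C. Of the 6 member windows, 5 held a GC box (Gas1, Gli2, Gli3, Hhip and Ptch1), as did 32.7% of the 32851 windows of this length. The GLI motif GACCACCCA was found on neither strand of the 6 windows, and in 0.225% of all windows. The half-site AGGTCA, read by retinoic acid receptors among other nuclear receptors, was also found in 0 of the 6, against 14.0% of all windows. Both strands were searched for these exact letters only, not for variants, and none of the 3 motifs contains another. These matches describe the letters of short windows only.

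The co-receptors Gas1 and Boc both help cells bind ligand. Gas1 read 5.75 in VAD and 5.89 in VAS, a difference of -0.14, and 6.26 in BMS and 5.78 in CTR. BMS was the highest of the 4 arrays and the one that carried Gas1 over the filter on low values. Its BMS minus CTR difference of 0.48, or 1.40-fold, was the largest of any Hedgehog gene within an experiment, and 4.62% of all genes stood as far or farther above CTR. Adventitial fibroblast markers were higher in BMS too, with 10 of 10 above 0 and 5 of them 1.5-fold higher. They summed to 21540 in BMS and 15789 in CTR. Gli1, left out of that list, differed by -0.35 in BMS minus CTR. Of the alveolar fibroblast markers, 8 of 9 were above 0, with a median of 0.30, and 2 were 1.5-fold higher. Between the controls, CTR minus VAS was -0.11 for Gas1 and -1.11 for the adventitial marker median. The part of any of these cells in the Gas1 difference was not tested. Boc read 10.60 in VAD and 10.41 in VAS, and 10.54 in BMS and 10.62 in CTR. Its range over the 4 arrays, 0.20, was the narrowest of the 8 genes, and its differences were 0.19 and -0.079.

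**Figure D2:**
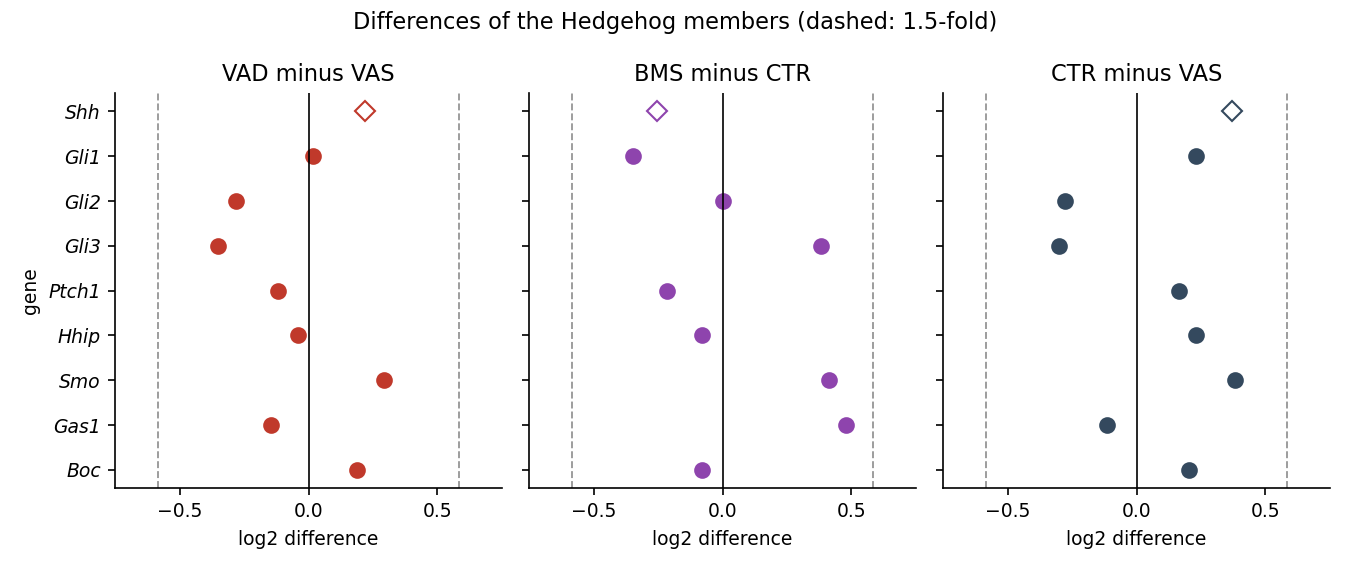
Log2 differences (horizontal axes) of the 9 Hedgehog genes, with a panel each for VAD minus VAS, BMS minus CTR and CTR minus VAS, 1 point per gene, with 0 as a solid line and 1.5-fold as dashed lines. The open diamond is Shh, which lay under the filter on low values, and the widest point is Gas1 at 0.48 in BMS minus CTR.

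A fit with more than 1 array on each side set VAD and BMS together against VAS and CTR, with limma, the experiment as a block and 1 residual degree of freedom. That residual is the disagreement of the diet and antagonist experiments, so it does not measure replicate spread. The eBayes step draws each gene's variance toward that of all genes, and each SE and p rests largely on this. The residual SD of Smo itself was 0.059 and that of Hhip 0.020. Of the 12395 genes, 0 (0%) had a Benjamini-Hochberg adjusted p under 0.05, while 476 (3.84%) had an unadjusted p under 0.05. Among the 8 Hedgehog genes, the limma estimate was largest for Smo, at 0.35 ± 0.13 (SE), with an unadjusted p of 0.0455 and an adjusted p of 1, and it was higher in 2 of 2 experiments. Its unadjusted limma p was 0.186 without the block, 0.0561 after quantile normalization and 0.0544 after cyclic loess. Ptch1 had an estimate of -0.17 ± 0.13 (SE), lower in 2 of 2 experiments, with an unadjusted limma p of 0.260. Hhip had an estimate of -0.062 ± 0.13 (SE). Gli3 had the smallest estimate, 0.015 ± 0.21 (SE), since its experiments ran in opposite directions. For Gli1, Gli2, Gas1 and Boc the estimates were -0.17, -0.14, 0.17 and 0.055. The missed threshold does not show that these genes were the same in all pools.

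Genes that work beside the 9 were taken from 5 lists of 79 genes in all, of which 75 were named on the array and 70 passed the filter. In VAD against VAS 1 of the 70 was 1.5-fold higher and 2 were lower, and in BMS against CTR 2 were higher and 1 lower. In CTR against VAS 3 were higher and 4 lower. As shares these lie near those of all genes given above. The other 4 were not analysed here.

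**Figure D3:**
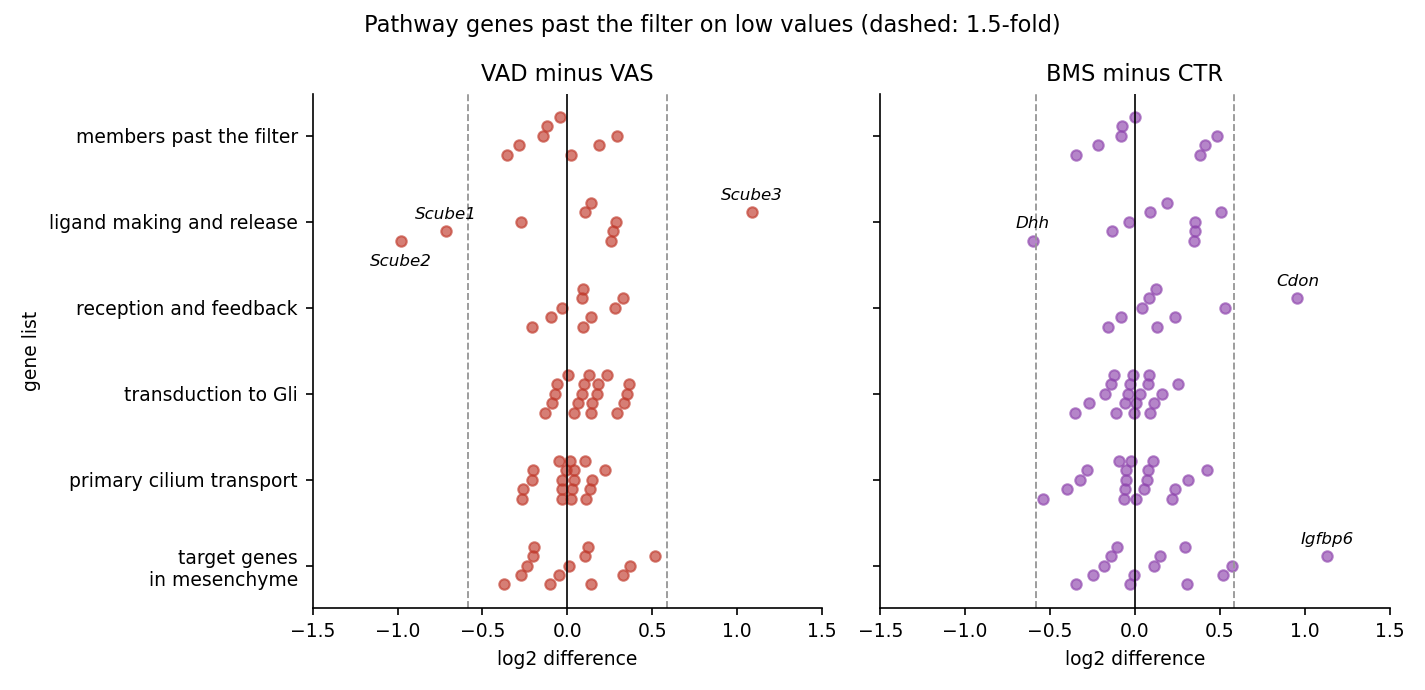
Log2 differences (horizontal axes; left panel VAD minus VAS, right panel BMS minus CTR) for genes past the filter on low values, 1 point per gene and 1 row per gene list, with the vertical scatter within a row only separating points. Dashed lines mark 1.5-fold, and the genes beyond them are named: Scube1, Scube2 and Scube3 in the diet experiment, and Dhh, Cdon and Igfbp6 in the antagonist experiment.

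All 3 genes past 1.5-fold in the diet experiment belong to the Scube family, secreted proteins of which Scube2 helps lipid-modified Hedgehog ligand leave the cell that makes it. Scube3 read 9.15 in VAD, against 8.06 in VAS, 7.97 in BMS and 8.10 in CTR, and was 1.09 or 2.12-fold higher in VAD than in VAS. Scube2 read 7.15 in VAD, against 8.13 in VAS, 8.30 in BMS and 8.11 in CTR, and differed by -0.98 between VAD and VAS. For both genes the VAD array alone stood apart, the other 3 lying within 0.13 log2 units for Scube3 and 0.19 for Scube2. Across all 12395 genes, VAD stood 1.5-fold above each other array for 0.452% and 1.5-fold below each for 0.274%, a rule chosen after these values were seen. None of the 8 Hedgehog members met it. Scube1 read 8.42 in VAD and 9.14 in VAS, and 9.08 in BMS and 8.73 in CTR. Its difference of -0.72 in VAD minus VAS became -0.30 against CTR.

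In the antagonist experiment no Scube gene was 1.5-fold apart. BMS minus CTR was 0.35 for Scube1, 0.19 for Scube2 and -0.13 for Scube3, each opposite in sign to the diet experiment, and the difference between experiments could not be tested. Adventitial fibroblast markers differed by a median of -0.12 in VAD minus VAS, with 2 of 10 above 0 and none past 1.5-fold. Alveolar fibroblast markers had a median of 0.11, with 5 of 9 above 0 and 1 lower by 1.5-fold. Pericyte and vascular smooth muscle markers had a median of 0.17, with 7 of 10 above 0 and 1 lower by 1.5-fold. Alveolar epithelial markers summed to 1331 in VAD, 2870 in VAS, 1225 in BMS and 790 in CTR, with VAS the highest array in that list. The part of any of these cells in the Scube differences was not tested.

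The 250 bases before the starts of Scube2 and Scube3 are given in the same way, because this pair stood apart in opposite directions in VAD. Scube2 lies at chr7:109865680-109865929 on the minus strand and Scube3 at chr17:28142059-28142308 on the plus strand, in GRCm38.p6 from RefSeq.
Scube2: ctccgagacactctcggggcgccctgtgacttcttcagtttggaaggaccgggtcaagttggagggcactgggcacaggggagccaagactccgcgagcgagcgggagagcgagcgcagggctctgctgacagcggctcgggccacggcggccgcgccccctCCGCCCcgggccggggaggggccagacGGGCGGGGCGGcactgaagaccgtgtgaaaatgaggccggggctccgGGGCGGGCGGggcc
Scube3: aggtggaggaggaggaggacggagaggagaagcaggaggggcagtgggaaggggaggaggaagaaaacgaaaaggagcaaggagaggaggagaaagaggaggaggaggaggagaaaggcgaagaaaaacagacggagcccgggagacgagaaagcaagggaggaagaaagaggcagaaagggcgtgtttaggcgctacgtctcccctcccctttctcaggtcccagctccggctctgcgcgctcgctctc

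The Scube2 window held 5 GC boxes, some of them overlapping, at 73.6% G or C. The Scube3 window held 0 and was rich in purines, 74.0% A or G. Neither held the exact letters GACCACCCA or AGGTCA on either strand. Variants of these motifs were not searched, so their absence is not shown.

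Of the other genes of ligand making and release, Dhh, a second Hedgehog ligand, read 6.10 in VAD and 5.81 in VAS, and 5.45 in BMS and 6.05 in CTR. Its BMS minus CTR difference of -0.60 came from values close to or under the filter. Ihh, the remaining ligand, and the release protein Disp1 were among the 5 genes of this list that passed the filter and showed no 1.5-fold difference in either experiment.

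In the list of reception and feedback genes, Cdon, a co-receptor and relative of Boc, read 7.62 in VAD and 7.83 in VAS, and 8.04 in BMS and 7.09 in CTR. It was 0.96 or 1.94-fold higher in BMS than in CTR, and CTR was the lowest array, with CTR minus VAS at -0.74. Against VAS, BMS was 0.22 higher. Gpc3, a glypican that competes with Ptch1 for ligand, read 10.10 in VAD and 9.83 in VAS, and 9.09 in BMS and 8.55 in CTR. Its arrays separated by experiment, with CTR minus VAS at -1.27. No gene of this list passed 1.5-fold in VAD against VAS.

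Of the 14 genes of the target list past the filter, 13 showed no 1.5-fold difference in either experiment. The list medians were -0.020 in VAD minus VAS and 0.051 in BMS minus CTR. The exception, similar to Cdon, was Igfbp6, a binding protein of insulin-like growth factors. Igfbp6 read 10.90 in VAD and 11.13 in VAS, and 11.42 in BMS and 10.29 in CTR. It was 1.13 or 2.19-fold higher in BMS than in CTR, and 0.29 higher than in VAS. Cdon, Igfbp6 and Gpc3 were all lower in CTR than in VAS. So were 7 of 10 adventitial fibroblast markers by at least 1.5-fold, with a marker median of -1.11. Of the alveolar epithelial markers past the filter, 4 of 6 were lower by as much, with a median of -1.17. Medians were -0.38 for alveolar fibroblast and -0.42 for macrophage and monocyte markers. Pericyte and vascular smooth muscle markers went the other way, with 9 of 10 above 0 and a median of 0.34. The part of any of these cells in these differences was not tested. Bmp4, a growth factor gene of lung mesenchyme, read 8.47 in VAD and 8.14 in VAS, and 9.18 in BMS and 8.66 in CTR, and was higher in each treated pool by 0.33 and 0.52, under the 1.5-fold mark. Like Smo it was also higher in CTR than in VAS, by 0.52.

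**Figure D4:**
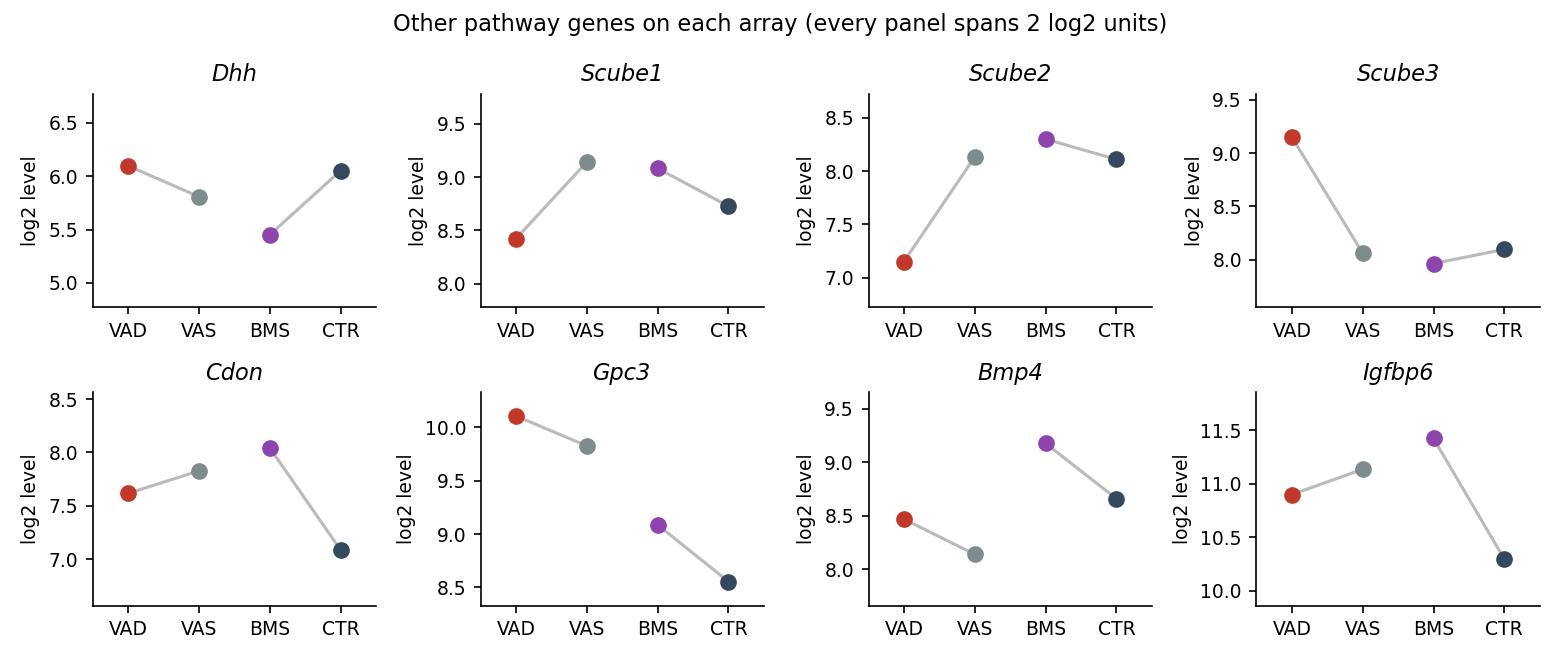
Log2 level (vertical axis) of 8 other pathway genes on the VAD, VAS, BMS and CTR arrays, 1 point per array, with a line joining the 2 arrays of an experiment and the same height in every panel. Scube2 and Scube3 stood apart in VAD (7.15 and 9.15), and Cdon and Igfbp6 were lowest in CTR (7.09 and 10.29).

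No listed gene of the steps between Smo and the Gli proteins, or of the primary cilium in which they take place, differed 1.5-fold within an experiment. Of all 12395 genes, 1.45% were higher and 2.11% lower in VAD against VAS, and 3.11% and 1.89% in BMS against CTR. With such shares, lists of this size would hold few, so the zeros are not a result about these steps. All 19 transduction genes and 19 cilium genes lay between -0.27 and 0.36 in VAD minus VAS and between -0.54 and 0.42 in BMS minus CTR. The transduction median was 0.12 in VAD minus VAS and -0.0089 in BMS minus CTR, and the cilium medians were 0.017 and -0.021. Arrb1, an arrestin that joins Smo, and the kinase gene Stk36 had the largest mean differences of the transduction list, with 0.35 and 0.16 for Arrb1 and 0.33 and 0.074 for Stk36. In the cilium list the kinesin gene Kif3b had differences of 0.13 and 0.42, and Ift172, a subunit of intraflagellar transport, -0.0090 and -0.54.

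The genes whose 4 values most resembled those of Smo, after each gene's own mean was taken off, were Col6a3, Slc37a3, Cyp4b1, Paqr7 and Hspg2, at Euclidean distances of 0.044 to 0.086 log2 units over 4 arrays. Col6a3, a collagen VI chain gene, read 9.14 in VAD and 8.83 in VAS, and 9.59 in BMS and 9.24 in CTR. For Gli1 the nearest were Catip, Pibf1, Bicral, Son and Eif2ak4, at distances of 0.015 to 0.035. None of the nearest genes was a Hedgehog member or on a pathway list, and with 4 arrays and 12395 genes many close matches occur.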

How the data were processed

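The authors deposited log2 expression values. Per the submitters' processing notes these were made with RMA, R 2.15.1 and affy 1.36.1. The sources used here do not say whether other arrays were normalized together with these 4. Between-array normalization hides a shift shared by most genes. Probe sets carry Entrez gene numbers as names. Of 25206 in the table, 23185 had 1 gene symbol in GEO's platform annotation, none several, and 2021 are unnamed here. Precision is limited by the number of arrays.

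Differences of log2 values were taken within each experiment and between controls, and counted from 1.5-fold. limma (lmFit, eBayes, Benjamini-Hochberg adjustment) gave the joint fit, and its script was tested on simulated data. The members, lists and tests were chosen with earlier results of these data known. The text names all members, list genes 1.5-fold apart within an experiment, the 2 of each list with the largest mean difference, and the 5 genes most like Smo and Gli1. Ihh and Disp1 fall outside this rule. Alternatives were other filters, a 2-fold threshold, quantile normalization again, cyclic loess, other controls, other limma settings and leaving out each array. The fits used limma 3.58.1 in R 4.3.3, and the rest Python 3.11.15 with pandas 2.3.3, numpy 2.4.6 and matplotlib 3.10.9.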

Additional observations from a re-analysis of the deposited data

Results flagged for a closer look

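For 5 of the 9 Hedgehog genes, VAD minus VAS and BMS minus CTR had opposite signs. The value given for each is (BMS minus CTR) minus (VAD minus VAS) on the log2 scale, and none of these differences was tested, since each group is 1 array. The largest was Gli3 with 0.73, followed by Gas1 with 0.62, Shh with -0.48, Gli1 with -0.37 and Boc with -0.27. The signs of Gli1 agreed after quantile normalization and after cyclic loess, where VAD minus VAS was -0.0042 and -0.0039. All 5 rest on differences under 1.5-fold within each experiment, and Shh lay under the filter on low values. The share of all genes with opposite signs was not counted. The 5 of 9 is therefore not a result about Hedgehog genes as a set.

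Among the other named pathway genes, 6 had opposite signs, and in each at least 1 experiment passed 1.5-fold. The values were 1.37 for Igfbp6, -1.22 for Scube3, 1.17 for Scube2, 1.17 for Cdon, 1.07 for Scube1 and -0.89 for Dhh. The naming rule largely fixed this outcome. Genes were named for passing 1.5-fold or for a large mean of both differences, and opposite signs cancel in that mean. Opposite signs were not counted over all list genes or all genes.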

How the results depend on the processing

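The count of Hedgehog genes 1.5-fold apart stayed at 0 for VAD against VAS and for CTR against VAS under every alternative run. For BMS against CTR it was 1, namely Smo, with VAS in place of CTR and with the mean of VAS and CTR as control, and 0 under the other alternatives. The joint fit called 0 genes under all 12 alternatives, the smallest adjusted p in any being 0.240. Without 1 array in turn and without the block, the joint estimates ran from -0.20 to 0.23 for Gli3 (-0.13 without CTR), from -0.18 to 0.054 for Hhip (0.034 without VAD), from -0.087 to 0.42 for Gas1 and from -0.046 to 0.16 for Boc, crossing 0, and from 0.10 to 0.60 for Smo, from -0.28 (without VAS) to -0.050 (without CTR) for Gli1, from -0.28 (without CTR) to -0.0022 (without VAS) for Gli2 and from -0.25 (without VAS) to -0.086 (without CTR) for Ptch1. Quantile normalization and cyclic loess moved each member difference by less than 0.11 log2, the median residual SD of the joint fit, though signs near 0 turned for Hhip and Gli1, while the other control moved all 18 by more. Detection above background is unknown.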
